A study of Mus musculus with 2 samples.

Results

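Mast cell genes were followed in total RNA of adrenal glands of female B6CASTF1/J mice aged 10 days, a first-generation cross between the C57BL/6J and CAST/EiJ strains. The set holds 9 genes chosen by symbol, of 55536 annotated genes in the gene table. They are the granule proteases Cpa3, Cma1, Mcpt4, Tpsb2 and Tpsab1, the receptor genes Kit, Ms4a2 and Fcer1a, and the histamine-forming enzyme gene Hdc. All 9 symbols matched 1 gene each. The series holds 1 group of 2 libraries, made from 300 ng of RNA each with spike-in RNA added, and there is no second condition. The labels number the libraries as biological replicates 1 and 2 and give each tissue its own female, yet both library descriptions carry the same female and cDNA number, and both samples share 1 donor entry. Separate animals and repeat libraries of 1 animal therefore cannot be told apart, and each SD covers only the spread of 2 samples, which may in part be technical.

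Mast cells are tissue-resident cells of the blood lineage that store histamine and proteases in granules and release them on stimulation. Stem cell factor, made by stromal cells, acts on the receptor tyrosine kinase Kit to keep them alive, and IgE bound to the receptor FcεRI arms them to react to antigen. Mouse mast cells of connective tissue carry the chymases encoded by Cma1 and Mcpt4, the tryptases encoded by Tpsb2 and Tpsab1 and the carboxypeptidase encoded by Cpa3. Mast cells of mucosal surfaces carry the chymases encoded by Mcpt1 and Mcpt2 instead. In the adrenal gland, mast cells have been described mainly in the capsule and the outer cortex.

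TPM is a level per transcript length, scaled to the same total in each library. Promoters are shown for 2 granule protease genes measured at more than 1 TPM and for both IgE receptor genes, which were below 1 TPM. Each runs from 250 bases before to 50 bases after the annotated start, 5′ to 3′ on the gene's own strand, from RefSeq on GRCm38.p6. Capitals mark the hexamer AGATAA with its variant AGATAG, and TGATAA with its variant TGATAG, on either strand, which are letters that GATA factors such as Gata2 are known to bind. The windows are chr3:20242132-20242431 for Cpa3, chr14:56062261-56062560 for Mcpt4, chr19:11623670-11623969 for Ms4a2 and chr1:173227180-173227479 for Fcer1a, all on the minus strand.
Cpa3: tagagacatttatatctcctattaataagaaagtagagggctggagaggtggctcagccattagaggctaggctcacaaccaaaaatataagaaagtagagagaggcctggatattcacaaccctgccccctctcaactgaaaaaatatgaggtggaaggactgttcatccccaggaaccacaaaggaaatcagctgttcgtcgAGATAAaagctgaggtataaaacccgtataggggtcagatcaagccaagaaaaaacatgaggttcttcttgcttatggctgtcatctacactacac
Mcpt4: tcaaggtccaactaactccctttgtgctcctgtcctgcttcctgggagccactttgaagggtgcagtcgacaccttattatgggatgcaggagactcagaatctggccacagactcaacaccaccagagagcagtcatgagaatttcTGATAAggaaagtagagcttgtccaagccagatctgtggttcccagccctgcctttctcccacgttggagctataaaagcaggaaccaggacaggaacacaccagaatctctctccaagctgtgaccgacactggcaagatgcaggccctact
Ms4a2: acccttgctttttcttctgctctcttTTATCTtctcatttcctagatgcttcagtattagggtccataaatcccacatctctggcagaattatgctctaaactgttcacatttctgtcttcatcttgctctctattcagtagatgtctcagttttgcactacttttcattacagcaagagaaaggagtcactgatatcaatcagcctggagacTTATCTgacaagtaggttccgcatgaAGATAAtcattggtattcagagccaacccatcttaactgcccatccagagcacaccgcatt
Fcer1a: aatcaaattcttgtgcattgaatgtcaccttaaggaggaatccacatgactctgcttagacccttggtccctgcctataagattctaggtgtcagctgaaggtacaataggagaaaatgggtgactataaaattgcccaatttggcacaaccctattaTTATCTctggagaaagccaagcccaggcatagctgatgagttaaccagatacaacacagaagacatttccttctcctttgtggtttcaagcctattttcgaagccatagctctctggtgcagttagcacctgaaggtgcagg
The table held promoters for 7 of the 9 genes, the exceptions being Tpsb2 and Tpsab1. In 6 of these 7 genes, all but Kit, the window held such a hexamer, and 29.8% of all 32851 promoters of that length did so. In Cpa3 it began 46 bases before the start, in Cma1 79, in Mcpt4 103, in Fcer1a 92 and in Hdc 221. Ms4a2 had 3 of them, beginning 224, 37 and 11 bases before the start. The hexamer CATGTG, which the mast cell factor Mitf is known to bind, was found on either strand in 1 of the 7 genes, Fcer1a, and in 14.2% of all promoters, and it overlapped no GATA hexamer there. The hexamers thus stood in promoters of genes at both ends of the range of levels. These matches are descriptions of the letters only.

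The libraries held 35287805 expected counts in replicate 1 and 33068267 in replicate 2 over annotated genes. A gene with 0 counts may have up to 3, equal to 0.0850 CPM (counts scaled by the library total) in replicate 1 and 0.0907 CPM in replicate 2. Counting error alone enters this limit and the exact intervals of the ratios between libraries. Markers of other tissues moved between the libraries. A marker was called at an adjusted p under 0.05 by the exact binomial test and at least 2-fold. All 5 liver markers were called higher in replicate 1, with summed levels of 5415 TPM in replicate 1 and 1046 TPM in replicate 2. All 7 kidney markers were called higher in replicate 2, with sums of 0.97 TPM in replicate 1 and 221 TPM in replicate 2. Erythroid markers summed to 3070 TPM in replicate 1 and 1783 TPM in replicate 2, with 4 of 6 called, and neutrophil markers to 59.5 and 27.8 TPM with 4 of 6 called. Of the 5 skeletal muscle markers, which summed to 2686 TPM in replicate 1 and 943 TPM in replicate 2, 4 were called higher in replicate 1, and Myh4 was called higher in replicate 2, at 9.40 TPM in replicate 1 and 92.7 TPM in replicate 2. Capsule and stroma markers summed to 568 TPM in replicate 1 and 818 TPM in replicate 2, and none of the 6 was called, although all 6 log2 ratios were negative and 5 had an adjusted p under 0.05 by the exact test. All 6 adrenal cortex and all 6 chromaffin markers reached 1 TPM in both libraries and none was called. Their summed levels were 3796 and 4098 TPM for cortex and 1038 and 1006 TPM for chromaffin cells in replicates 1 and 2. In each of these lists 5 of the 6 markers had an adjusted p under 0.05 by the exact test. All 6 cortex log2 ratios were negative, while 4 chromaffin ratios were positive and 2 negative. The 4 brown fat markers also reached 1 TPM in both libraries, with sums of 2938 TPM in replicate 1 and 3515 TPM in replicate 2. None was called, although all 4 log2 ratios were negative with an adjusted p under 0.05 by the exact test. The part of brown fat in the levels of the 9 genes was not tested.

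RNAs of the 5 granule protease genes and of Kit, a gene that other cell types also use, stood between 0.85 and 4.94 TPM. Those of the IgE receptor genes Ms4a2 and Fcer1a were at most 0.23 TPM in both libraries of the gene table. In the other quantification Ms4a2 was at 0.731 TPM in replicate 2. Of the 9 genes, 6 reached 1 TPM in both libraries, namely Cpa3, Cma1, Mcpt4, Tpsb2, Kit and Hdc. Over all protein-coding genes 58.2% did so, and over all annotated genes 25.5%, so the share among the 9 lies near that of protein-coding genes. The median of the 9 mean levels was 2.59 TPM, and that of all protein-coding genes was 2.93 TPM. In whole tissue, fewer cells of a type and less RNA per cell cannot be told apart. The 9 genes together took 1364 counts in replicate 1 and 1359 in replicate 2, which is 38.7 and 41.1 CPM.

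**Figure D1:**
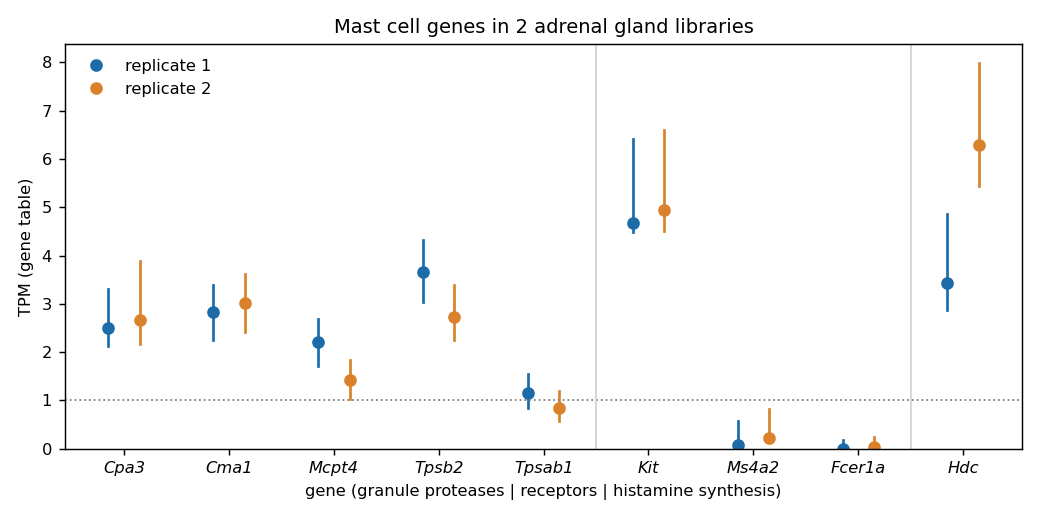
Level of each of the 9 genes in TPM of the gene table (y axis, linear), with replicate 1 left of replicate 2; vertical bars are the credibility intervals deposited by the authors and the dotted line is 1 TPM. Ms4a2 and Fcer1a lie below 1 TPM in both libraries, while Kit and Hdc have the highest means.

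The carboxypeptidase gene Cpa3, whose product trims peptides already cut by chymase, stood at 2.51 TPM in replicate 1 and 2.67 TPM in replicate 2, from 114 and 104 counts. Its mean of 2.59 ± 0.113 TPM (SD, n = 2) lay above the mean of 48.6% of protein-coding genes. Cma1, which encodes the chymase mMCP-5 that is stored together with the carboxypeptidase, stood at 2.83 TPM in replicate 1 and 3.01 TPM in replicate 2, from 93 counts in each. The libraries gave nearly the same values for both genes, and within each library the log2 ratio of Cpa3 to Cma1 levels was -0.17. In the other quantification this ratio was -0.44 in replicate 1 and -0.60 in replicate 2, so its size depends on the quantification. Cpa3 (ENSMUSG00000001865.2) lies on chromosome 3 from 20215620 to 20242181 in mm10, and Cma1 (ENSMUSG00000022225.7) on chromosome 14 from 55941451 to 55944675.

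Mcpt4, which encodes mMCP-4, a chymase of connective tissue mast cells, stood at 2.21 TPM in replicate 1 and 1.43 TPM in replicate 2, from 75 and 45 counts. The mean was 1.82 ± 0.552 TPM (SD, n = 2). Its deposited credibility intervals, 1.71 to 2.69 TPM in replicate 1 and 1.02 to 1.84 TPM in replicate 2, overlapped. Mcpt4 lies in the same locus as Cma1, on chromosome 14 from 56059629 to 56062313, with 115 kb between the genes. The locus also holds the mucosal chymase genes Mcpt1 and Mcpt2, the related Mcpt9 and Cma2, and the protease genes Mcpt8, Ctsg and Gzmb. Mcpt1 and Mcpt9 had 0 counts in both libraries and Mcpt2 had 0 and 1 counts in replicates 1 and 2. Cma2 had 2 counts in each. Chymase RNA of the connective tissue kind was therefore measured, while the mucosal chymase genes Mcpt1 and Mcpt2 had at most 1 count in a library.

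The tryptase gene Tpsb2, whose product mMCP-6 is bound to heparin in the granule, had the highest mean of the 5 proteases. It stood at 3.66 TPM in replicate 1 and 2.73 TPM in replicate 2, from 121 and 87 counts, with a mean of 3.195 ± 0.658 TPM (SD, n = 2). Tpsab1, which encodes the tryptase mMCP-7, stood at 1.16 TPM in replicate 1 and 0.85 TPM in replicate 2, from 44 and 30 counts. Tpsb2 exceeded its neighbour by a log2 ratio of 1.66 in replicate 1 and 1.68 in replicate 2, a difference larger than the spread between the libraries. C57BL/6 mice are known to carry a splice-site change in Tpsab1 that stops the enzyme from being made, and RefSeq lists the gene as a transcribed pseudogene on its C57BL/6J assembly while GENCODE M21 lists it as protein-coding. The counts are not divided by parental allele, so the share of Tpsab1 RNA from the C57BL/6J and CAST/EiJ copies was not tested. Tpsab1 lies on chromosome 17 from 25343245 to 25345562 and Tpsb2 from 25366305 to 25369098, 20.7 kb apart.

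These proteases have close relatives, so the division of reads was examined. Tpsb2-201 and Tpsab1-202, the leading transcripts of their genes in replicate 1, shared 76.5% of 992 aligned bases, with a longest identical run of 39 bases. Cma1-201 and Mcpt4-201 shared 70.4% of 932 aligned bases, with a longest run of 27. Mcpt4-201 was closer to Mcpt1-201, at 85.6% of 976 aligned bases and a longest run of 46. The expected counts of all 9 genes were exactly whole as deposited in both libraries, as were those of 81.3% of the 18883 genes tested. Fractional counts, which shared reads can give, were thus not seen in these genes. CAST/EiJ reads that match the reference less well remain a source of error whose size was not tested.

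Among the receptor genes, Kit was at 4.67 TPM in replicate 1 and 4.94 TPM in replicate 2, from 689 and 601 counts, with a mean of 4.805 ± 0.191 TPM (SD, n = 2). Kit binds stem cell factor and is also made by melanocytes, interstitial cells of Cajal and blood progenitors. In the gene table the melanocyte genes Dct and Tyr had at most 2 counts in a library. In the other quantification Dct was at 0.300 TPM in replicate 1 and 0.451 TPM in replicate 2. Pmel was the highest of the melanocyte list, at 0.68 TPM in replicate 1 and 1.02 TPM in replicate 2 of the gene table. Cd34, found in blood progenitors and also in endothelial and stromal cells, stood at 42.0 TPM in replicate 1 and 40.5 TPM in replicate 2, and the blood progenitor gene Flt3 at 0.14 and 0.1 TPM. Ano1 and Etv1, found in interstitial cells of Cajal and in other cell types, were at 11.3 and 14.1 TPM in replicate 1 and at 14.1 and 11.7 TPM in replicate 2. The part of these cells in the Kit level was not tested. Kit lies on chromosome 5 from 75574916 to 75656722.

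RNA of the alpha and beta chains of the IgE receptor was low, at most 0.23 TPM in the gene table. Ms4a2, which encodes the beta chain that amplifies FcεRI signalling, stood at 0.08 TPM in replicate 1 and 0.23 TPM in replicate 2, from 5 and 10 counts. In the other quantification Ms4a2 was at 0.0818 TPM in replicate 1 and 0.731 TPM in replicate 2. Its deposited credibility interval in replicate 2 was 0.212 to 0.826 TPM. Fcer1a, which encodes the IgE-binding alpha chain, had 0 counts in replicate 1 and 1 count in replicate 2, and was listed at 0 and 0.04 TPM. The 3-count limit applies to its 0 counts in replicate 1 only. The gamma chain gene Fcer1g, which macrophages and other myeloid cells also use, stood at 4.75 TPM in replicate 1 and 4.09 TPM in replicate 2, and the 6 macrophage markers summed to 76.1 and 62.2 TPM. Both IgE receptor genes lay below all 5 protease genes in each library. For Ms4a2 the deposited credibility interval in replicate 1, 0.0991 to 0.571 TPM, lies above the listed value. Listed values also fell outside their intervals in genes with many counts. The liver marker Alb was listed at 2509 TPM in replicate 1, with an interval of 2448 to 2472 TPM. Ms4a2 lies on chromosome 19 from 11615523 to 11623719 and Fcer1a on chromosome 1 from 173221284 to 173227214.

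Hdc, whose product makes histamine from histidine, stood at 3.44 TPM in replicate 1 and 6.29 TPM in replicate 2, from 223 and 388 counts. The mean was 4.865 ± 2.02 TPM (SD, n = 2), the widest spread of the 9 genes. Hdc is also made in other cell types, among them cells of the mouse kidney, and the 7 kidney markers summed to 0.97 TPM in replicate 1 and 221 TPM in replicate 2. Capsule and stroma, adrenal cortex and brown fat markers also had higher scaled counts in replicate 2, with none called. The part of each of these in the Hdc level was not tested. Hdc lies on chromosome 2 from 126593667 to 126619299.

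Ordered by mean level, the genes ran Hdc, Kit, Tpsb2, Cma1, Cpa3, Mcpt4, Tpsab1, Ms4a2 and Fcer1a. Hdc and Kit overlapped between the libraries, and so did Tpsb2 and Cma1, so their order is not fixed beyond the spread. The 6 other neighbouring pairs did not overlap in their listed values. Hdc and Tpsb2, which are not neighbours, did overlap, at 3.44 and 3.66 TPM in replicate 1. The deposited credibility intervals of Cma1 and Cpa3 also overlapped, at 2.26 to 3.39 TPM and 2.12 to 3.30 TPM in replicate 1. In the other quantification, which has another TPM scale, Kit stood above Hdc and Cma1 above Tpsb2, and the places of the remaining 5 genes were the same. There Kit averaged 7.79 ± 1.71 TPM, Cma1 5.09 ± 0.631 TPM and Fcer1a 0.0576 ± 0.0815 TPM (SD, n = 2 each).

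The libraries were then compared by binomial testing of counts, exact and two-sided, adjusted over all 18883 genes with at least 20 counts in sum. A gene was called at an adjusted p under 0.05 and at least 2-fold. None of the 9 genes was called, and 6.85% of all genes tested were, 4.11% higher in replicate 1 and 2.74% higher in replicate 2. Of the 9 genes 7 had enough counts, the exceptions being Ms4a2 and Fcer1a. Hdc and Mcpt4 had an unadjusted p under 0.05, which 34.5% of all genes tested had. The test covers counting error between these libraries and has no replicate check.

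**Figure D2:**
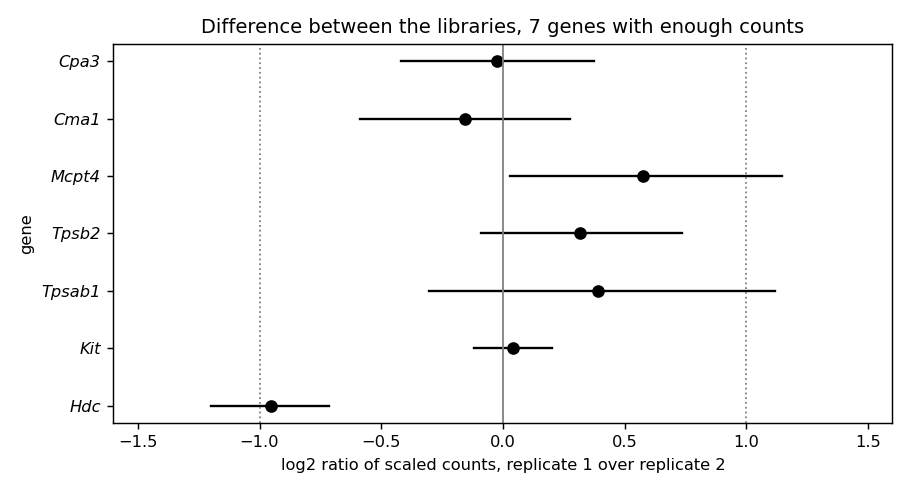
Log2 ratio of scaled counts, replicate 1 over replicate 2 (x axis), for the 7 genes with at least 20 counts; bars are exact 95% Clopper-Pearson intervals and dotted lines mark 2-fold. Hdc lies at -0.95 with an interval that excludes 0, and Cpa3 and Kit lie at -0.02 and 0.04.

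Hdc differed beyond counting error, with a log2 ratio of -0.95 and an adjusted p of 1.96e-14 by the exact binomial test with Benjamini-Hochberg adjustment. Its level in replicate 1 was 0.516 of that in replicate 2 (95% interval 0.436 to 0.610), which stays just inside the 2-fold limit, although the interval spans it. With a 1.5-fold limit Hdc was called, as were 9.73% of all genes tested. For Mcpt4 the log2 ratio was 0.57, with an interval from 0.03 to 1.15 and an adjusted p of 0.110 by the same exact test. Tpsb2 and Tpsab1 had log2 ratios of 0.32 and 0.39, Cma1 -0.16, Cpa3 -0.02 and Kit 0.04. Kit had the narrowest interval, from -0.12 to 0.20, so a 2-fold difference lies outside it. The direction for Cpa3 and Kit changed with the scaling, Cpa3 to 0.038 with total counts and Kit to -0.067 from TPM with 1 added. The median over the 7 genes was 0.04, and over all genes tested it was 0.01. Summed levels of the 5 proteases were 12.4 TPM in replicate 1 and 10.7 TPM in replicate 2.

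Transcripts of Kit were examined because the receptor is known to exist in a long and a short form that differ beside the membrane. The annotation gives 8 Kit transcripts, of which Kit-201 and Kit-204 are full-length coding ones. They differ in 12 bases at the end of exon 9, chr5:75639147-75639158 on the plus strand of mm10, and in their first exons. The stretches around that exon end are shown because they define the forms, with the 12 bases present in Kit-201 alone in capitals.
Kit-201: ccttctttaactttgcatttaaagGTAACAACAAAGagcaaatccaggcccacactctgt
Kit-204: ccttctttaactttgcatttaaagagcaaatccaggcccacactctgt
The shorter form Kit-204 led in both libraries, at 2.68 TPM in replicate 1 and 2.36 TPM in replicate 2, with Kit-201 at 1.05 and 1.09 TPM. Kit-201 made up 28.2% of the pair in replicate 1 and 31.6% in replicate 2, and 26.2% and 33.8% in the other quantification. In each quantification the difference between the forms was larger than the spread between the libraries. Their deposited credibility intervals overlapped, at 1.72 to 3.20 TPM for Kit-204 and 0.373 to 1.82 TPM for Kit-201 in replicate 1. The 6 annotated retained-intron transcripts took 20.2% of Kit TPM in replicate 1 and 30.25% in replicate 2. In the other quantification they took 41.4% and 25.8%, led by Kit-203 at 3.01 TPM in replicate 1 and 1.26 TPM in replicate 2.

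**Figure D3:**
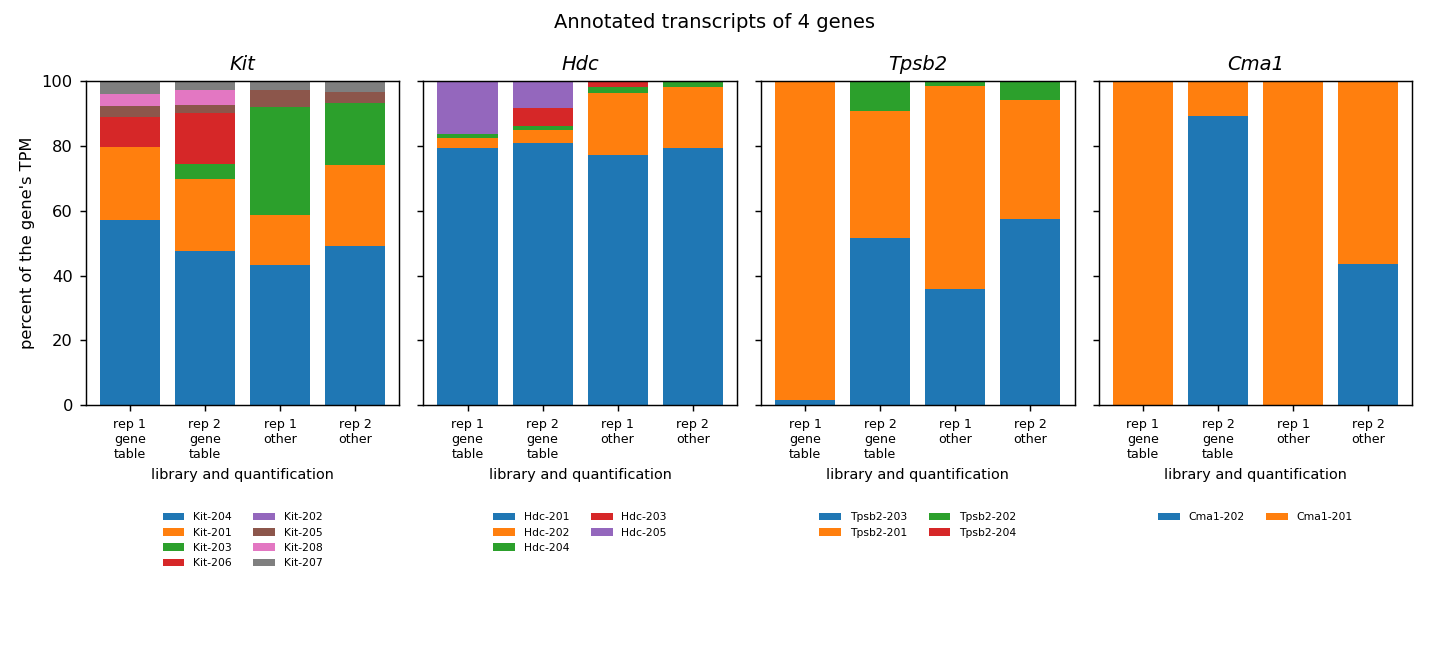
Percent of each gene's TPM (y axis) in its annotated transcripts for Kit, Hdc, Tpsb2 and Cma1, with replicate 1 left of replicate 2 for the gene table's quantification and then for the other one; colours are transcripts. Kit-204 and Hdc-201 lead in all 4 columns, while the leading transcripts of Tpsb2 and Cma1 change between columns.

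The 9 genes have 31 annotated transcripts in all, Kit included. Hdc-201, the coding transcript, held 79.3% of Hdc TPM in replicate 1 and 80.8% in replicate 2. Tpsab1-202 held 91.1% and 90% of Tpsab1 TPM, and Cpa3-201 held 100% and 89.97% of Cpa3 TPM. Mcpt4 has 1 annotated transcript. Cma1-201 held 100% in replicate 1 and 10.7% in replicate 2, where Cma1-202 held 89.3%. Tpsb2-201 held 98.3% in replicate 1 and 39.2% in replicate 2. Cma1-202 has 1090 bases and Cma1-201 1074, and Tpsb2-203 has 1118 and Tpsb2-201 1081, so few reads can separate them and these shares are uncertain. The leading transcript was the same in both libraries for 5 of the 9 genes, namely Cpa3, Mcpt4, Tpsab1, Kit and Hdc.

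Further genes of mast cell biology were taken from 8 lists with 66 genes. Of these, 32 reached 1 TPM in both libraries, as did 58.2% of all protein-coding genes and 25.5% of all annotated genes. The counts of detected genes in the single lists below stand beside the same shares. In the comparison of the libraries 48 had enough counts, 3 were higher in replicate 1 and 1 was higher in replicate 2, and their median log2 ratio was 0.04. These counts stand beside the 4.11% and 2.74% of all genes tested. The lists differ in how far other cells of the gland share them, so their levels do not single out mast cells.

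**Figure D4:**
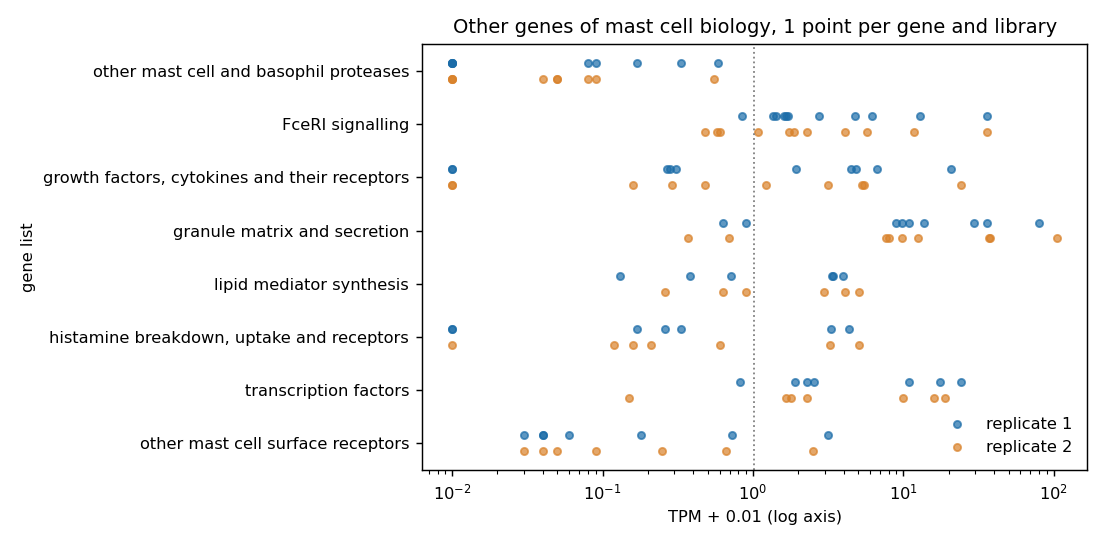
TPM + 0.01 on a log axis (x axis) for each gene of the 8 lists (y axis), with replicate 1 drawn above replicate 2; the dotted line marks 1 TPM and points at the left edge are genes listed at 0. No gene of the list of other mast cell and basophil proteases reached 1 TPM.

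The ligand and cytokine list had the Kit ligand gene Kitl as its highest member. It stood at 20.7 TPM in replicate 1 and 24.2 TPM in replicate 2, 4.42 and 4.91 times the Kit level in the same libraries. Csf2rb, the shared beta chain of the IL-3, IL-5 and GM-CSF receptors, had 6.65 TPM in replicate 1 and 5.50 TPM in replicate 2, and the alarmin gene Il33 had 4.80 and 5.27 TPM. Il3 and Il9 had 0 counts in both libraries. None of the 10 genes was called, although 3 had an adjusted p under 0.05 by the exact test, as did 26.5% of all genes tested.

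In the FcεRI signalling list 8 of 11 genes reached 1 TPM in both libraries, headed by Plcg1, Lyn and Inpp5d. Plcg1, a phospholipase of many cell types, stood at 35.9 TPM in replicate 1 and 36.1 TPM in replicate 2. Lyn, the kinase that starts FcεRI signalling, had 12.8 and 11.75 TPM, and Inpp5d, which encodes the inhibitory phosphatase SHIP1, had 6.22 and 5.73 TPM. The adaptor genes Lat and Grap2, which T cells also use, were called higher in replicate 1. Lat stood at 1.34 TPM in replicate 1 and 0.47 TPM in replicate 2 with a log2 ratio of 1.40 and an adjusted p of 0.00137 by the exact test. Grap2 stood at 1.69 and 0.57 TPM with a log2 ratio of 1.07 and an adjusted p of 1.03e-05 by the exact test. The lymphocyte markers moved the same way, with 3 of 6 called and sums of 29.5 TPM in replicate 1 and 14.9 TPM in replicate 2, and their part was not tested.

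Of the 7 transcription factor genes 6 reached 1 TPM in both libraries. Stat5b and Stat5a, which act downstream of cytokine receptors, had means of 21.4 ± 3.66 and 16.7 ± 0.962 TPM (SD, n = 2 each). Gata2, needed for mast cells and also made by chromaffin and endothelial cells, had 10.96 TPM in replicate 1 and 9.95 TPM in replicate 2. Gata1, shared by mast cells and red cell precursors, was called higher in replicate 1, at 0.81 TPM against 0.14 TPM in replicate 2, with a log2 ratio of 2.39 and an adjusted p of 1.60e-06 by the exact test. The erythroid markers moved the same way, with 4 of 6 called and a median log2 ratio of 2.03, and their part was not tested.

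Granule matrix and secretion genes were the highest of the lists, and 7 of 9 reached 1 TPM in both libraries. Cd63, a membrane protein of granules and lysosomes in many cells, stood at 80.1 TPM in replicate 1 and 105.35 TPM in replicate 2. Vamp8 and Stxbp2, which take part in granule fusion, had means of 36.7 ± 0.933 and 33.2 ± 5.36 TPM (SD, n = 2 each). None of the 9 genes of this list was called, although 4 had an adjusted p under 0.05 by the exact test. Of all genes tested 26.5% had such a value.

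Genes that make lipid mediators were lower, with 3 of 6 at 1 TPM in both libraries. Ptgs1, Ltc4s and Alox5ap, of prostaglandin and leukotriene synthesis, had means of 4.515 ± 0.757, 3.71 ± 0.552 and 3.175 ± 0.332 TPM (SD, n = 2 each). Ptgs2, the inducible cyclooxygenase gene, was called higher in replicate 2, from 7 counts in replicate 1 and 21 in replicate 2, with a log2 ratio of -1.68 and an adjusted p of 0.0177 by the exact test. The kidney markers, all 7 of which were called, went the same way. So did the capsule and stroma, adrenal cortex and brown fat markers, of which none was called. The part of each was not tested.

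Of the genes that handle histamine, 2 of 7 reached 1 TPM in both libraries and none was called. Hnmt, which methylates and inactivates histamine, stood at 4.34 TPM in replicate 1 and 5.04 TPM in replicate 2. Slc22a3, an organic cation transporter that takes up histamine, had 3.29 and 3.23 TPM. The histamine receptor gene Hrh1 was the highest of the 4 receptor genes, with 0.32 TPM in replicate 1 and 0.59 TPM in replicate 2, and Hrh4 had 0 counts in both. Aoc1, the histamine-degrading diamine oxidase gene, had 0 counts in replicate 1 and 17 in replicate 2, too few for the test. With no filter on counts it was called higher in replicate 2. The kidney markers went the same way, as did the uncalled capsule and stroma, adrenal cortex and brown fat markers. The part of each was not tested.

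Of the other surface receptors of mast cells, 6 of 7 stayed below 1 TPM. Enpp3, found on mast cells and basophils and in other tissues, had 3.13 TPM in replicate 1 and 2.51 TPM in replicate 2 and was the 1 gene of 7 above 1 TPM in both. C3ar1, a complement receptor gene shared with macrophages, had a mean of 0.68 ± 0.0424 TPM, and Mrgprb1 had 0.205 ± 0.0495 TPM (SD, n = 2 each). Mrgprb2, the receptor of connective tissue mast cells for cationic peptides, had 1 count in each library.

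Basophils share Ms4a2, Fcer1a and Hdc with mast cells, and their own proteases were low. Mcpt8 stood at 0.32 TPM in replicate 1 and 0.04 TPM in replicate 2, from 8 and 1 counts, and Prss34 at 0.58 and 0.54 TPM. None of the 3 basophil markers reached 1 TPM, and they summed to 0.95 TPM in replicate 1 and 0.66 TPM in replicate 2. The protease Ctsg, of neutrophils and some mast cells, had 5 counts in replicate 1 and 2 in replicate 2.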

How the data were processed

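RNA-seq of 2 adrenal gland libraries in 1 group was used. The 9 genes and all lists were chosen with earlier results of these data known. In the gene table, the authors deposited an expected count, a TPM, an FPKM and a credibility interval of TPM (a signal range) for each gene. A transcript table of the same kind adds each transcript's percent of the TPM of its gene, as deposited. Column names are those of RSEM. For the other quantification, the authors deposited an estimated count and a TPM per transcript under kallisto's column names, and these were summed to genes. Deposited notes name assembly mm10 and annotation M21. Aligners, quantifier versions, strand use and handling of CAST/EiJ variants: not given in the sources used here. Cpa3 overlaps the miRNA gene Mir7007, which had 0 counts, and no other of the 9 genes overlaps an annotated gene.

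Expected counts were rounded and scaled with TMM in edgeR 4.0.16 (R 4.3.3). DESeq2 1.42.0 gave alternative size factors. The 96 spike-ins and 26248 features named by a number alone (1.96e-05% of counts in replicate 1, 1.80e-05% in replicate 2) stayed out of library sizes and tests. With 1 group edgeR's quasi-likelihood test has no contrast, and an exact permutation test of 2 libraries by sign could reach no p under 0.5. The libraries were compared by an exact two-sided binomial test with Benjamini-Hochberg adjustment and a prior count of 0.5 for log2 ratios. The step was tested on simulated data. Named genes are the 9 members and, of each list of other genes, the 3 with the highest mean TPM and those called; others were chosen after their values were seen. With 2 libraries no gene was ranked by likeness. Promoters came from RefSeq, transcripts from GENCODE M21, aligned with Biopython 1.88. Python 3.11.15, numpy 2.4.6, pandas 2.3.3 and scipy 1.17.1 were used. Alternatives covered quantification, scaling, filters, limits and left-out libraries.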

Additional observations from a re-analysis of the deposited data

How the results depend on the processing

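The number of genes detected stayed between 5 and 7 over the other quantification, detection limits of 0.5 and 2 TPM and each library alone. The median level was 3.53 TPM in the other quantification and 2.435 in FPKM, against 2.59 TPM in the main analysis, and 2.51 to 2.67 TPM with either library left out. The count of called genes was 0 with each scaling, count filter and quantification run, and 1, Hdc, with a 1.5-fold limit and with no fold limit, where 9.73% and 26.5% of all genes tested were called. In the lists of other genes, 3 to 6 genes were called over these settings and 16 of 48 with no fold limit, against 4 in the main analysis. Aoc1 was called with no filter on counts. All alternatives to the main analysis run with a fold limit called Gata1 and Lat. Grap2 fell just short of the 2-fold limit in the other quantification, at a log2 ratio of 0.9998. Ptgs2 was lost with a summed count of at least 50. The log2 ratio of Cpa3 was 0.038 with total counts, and that of Kit was -0.067 and -0.079 from TPM with 1 and 0.1 added, against -0.02 and 0.04 in the main analysis. The cause was not tested. The leading transcript was the same in both libraries for 5 genes, and for 6 in the other quantification. Without 1 library there is no ratio between libraries. No paired analysis was possible because the series holds 1 group. Depth limits Ms4a2 and Fcer1a most, with 15 and 1 counts in sum, and shares among near-identical transcripts.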
